A study of Mus musculus with 17 samples.

Results

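Major histocompatibility complex (MHC) class I genes and the genes that supply them with peptides were followed in tumor cells and in 2 sorted populations labelled as macrophages from the lungs of mice with genetically induced lung tumors. The 10 genes described here, H2-K1, H2-D1, B2m, Tap1, Tap2, Tapbp, Nlrc5, Psmb8, Psmb9 and Psmb10, were chosen by symbol from 17556 genes listed in at least 1 of the 3 expression tables used, and all 10 were listed in every table and passed the filter on low values in each. KL mice carried Lkb1fl/fl among their alleles. KLG4 mice carried the same alleles together with Gpx4m/m, a knock-in allele that loses part of Gpx4 through a tamoxifen-inducible recombinase. The recombinase is driven by the CAG promoter once Cre has removed a STOP cassette, so the loss is designed for cells that met Ad-Cre and their progeny. Both genotypes received intranasal adenoviral Cre (Ad-Cre), which starts the tumors, and tamoxifen, so the controls shared both agents and lacked only the Gpx4m/m allele. Cells were taken 10 weeks after Ad-Cre. Tumor cells and the populations labelled tissue-resident macrophages (TRMs) and monocyte-derived macrophages (MDMs) were sorted by FACS, tumor cells as CD45-CD31-EpCAM+, and RNA-seq was available from 2 libraries of each genotype in each population, 12 libraries in all. The labels do not say whether 2 libraries of a group came from separate animals. The study describes the tumor cell groups as separate mice, and for TRMs and MDMs the spread between libraries may be technical.

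MHC class I molecules display peptides from inside the cell to CD8+ T cells. The proteasome cuts proteins into peptides, and in cells exposed to interferon its 3 catalytic subunits can be replaced by Psmb8, Psmb9 and Psmb10 to form the immunoproteasome. The TAP transporter, made of Tap1 and Tap2, carries the peptides into the endoplasmic reticulum, where tapasin (Tapbp) helps load them onto a heavy chain, H2-K1 or H2-D1 here, paired with beta-2 microglobulin (B2m). Nlrc5 is a transactivator that binds no DNA by itself and acts at class I promoters through the factors that sit on their X and Y boxes. Tumors that lower these genes can be poorly seen by CD8+ T cells.

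Of the 10 genes, 7 lie on chromosome 17, in the MHC region. In the coordinates of the tumor cell table (GRCm38), Psmb9 (chr17:34181988-34187764, minus strand), Tap1 (chr17:34187553-34197225, plus strand), Psmb8 (chr17:34197721-34201454, plus strand) and Tap2 (chr17:34203527-34216321, plus strand) follow each other. Tapbp (chr17:33915899-33929288, plus strand) and H2-K1 (chr17:33996017-34000333, minus strand) lie on one side of this cluster and H2-D1 (chr17:35262730-35267499, plus strand) on the other. B2m (chr2:122147686-122153083, plus strand), Nlrc5 (chr8:94434356-94527272, plus strand) and Psmb10 (chr8:105935735-105938444, minus strand) lie elsewhere. All are protein-coding.

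The promoters of the class I chains are shown because they carry the shared element through which the pathway is known to be regulated. RefSeq promoters (GRCm38.p6) were matched for 8 of the 10 genes, all but Tap2 and Nlrc5. An X2 box core, TGACG, followed after exactly 20 bases by a Y box, ATTGG, was read in H2-K1, H2-D1 and B2m. This spacing was chosen after the sequences had been read. The 30-base element lies at chr17:34000359-34000388 (minus strand) for H2-K1, at chr17:35262993-35263022 (plus strand) for H2-D1 and at chr2:122147609-122147638 (plus strand) for B2m. The capitals mark both boxes.
H2-K1: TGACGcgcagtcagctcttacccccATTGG
H2-D1: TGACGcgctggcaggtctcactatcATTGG
B2m: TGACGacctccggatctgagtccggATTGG
Of 32851 promoters of 250 bases, 30 (0.0913%) held both boxes at this spacing on either strand. These belonged to 26 genes, of which H2-M3, a nonclassical class I gene, was the only other H2 gene. The kappa B site core GGGATTCCC was held by H2-K1 and H2-D1 and by 99 of the 32851 promoters (0.301%). Without gaps, the windows of these 2 heavy chains were identical at 169 of 204 aligned bases (82.8%), read for H2-K1 from the window that begins at chr17:34000334, before the other of its RefSeq starts. The interferon-stimulated response element core GAAANNGAA occurred in B2m alone among the 8 genes and in 7.13% of all promoters, and the gamma-activated site core TTCNNNGAA in Psmb8 alone and in 7.02% of all promoters, both strands searched for each.

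The whole 250-base windows of one heavy chain and of the light chain show how these elements are placed. That of H2-K1 (chr17:34000348-34000597, minus strand) has the kappa B core beginning 110 bases before this start and the X2 core 41 bases before it, or 124 and 55 bases before its other RefSeq start. That of B2m (chr2:122147437-122147686, plus strand) has the interferon element beginning 139 bases and the X2 core 78 bases before the start. Capitals mark the elements just named.
H2-K1: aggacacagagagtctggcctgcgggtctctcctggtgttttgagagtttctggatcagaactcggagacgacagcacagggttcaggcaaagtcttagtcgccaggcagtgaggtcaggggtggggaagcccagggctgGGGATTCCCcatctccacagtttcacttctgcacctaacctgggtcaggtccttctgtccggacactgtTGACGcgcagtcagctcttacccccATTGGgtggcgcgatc
B2m: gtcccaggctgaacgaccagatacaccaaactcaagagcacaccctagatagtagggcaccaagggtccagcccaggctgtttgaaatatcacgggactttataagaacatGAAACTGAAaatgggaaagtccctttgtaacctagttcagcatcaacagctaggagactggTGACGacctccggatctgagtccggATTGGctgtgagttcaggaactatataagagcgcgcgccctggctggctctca
Tap1 and Psmb9 share one promoter region: their RefSeq starts lie 226 bases apart on opposite strands, and their windows overlap by 225 bases. Neither window held any of the 4 elements searched. A match is a description of letters and does not show that a factor binds.

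Expression was read as RPKM, reads per kilobase of exons divided by how many reads each library had counted, which allows levels to be compared between genes. The libraries held 15920195 to 36616986 counted reads in tumor cells, 9140750 to 26774976 in TRMs and 10376824 to 26067042 in MDMs. Members were covered by 81 reads (Psmb9) to 96258 reads (H2-D1) in their shallowest and deepest library. Gpx4, the targeted gene, stood at 94.95 and 76.8 RPKM in KL and 56.4 and 61.9 RPKM in KLG4 tumor cells. In TRMs it was also lower in KLG4 (53.8 and 57 RPKM against 89.8 and 88.2 RPKM in KL), and in MDMs it was higher (93.6 and 97.7 RPKM against 44.9 and 71.3 RPKM). Reads of undeleted exons count towards these values. The 2 KLG4 tumor libraries differed from each other far less than other pairs did, with a chi-square of 3.28 per gene against 28.9 to 132 in the other 5 groups. In tumor cells 25.1% to 32.5% of recovered counts below 30 were odd, so most reads were counted as mates of a pair and are not independent, and the chi-square per gene then overstates the difference. As the study describes separate mice they were kept as 2, and results are also given with them averaged.

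The sorted populations were checked against cell type markers. KL tumor libraries held Epcam at 638 and 420 RPKM and KLG4 tumor libraries at 215 and 211 RPKM. Leukocyte genes moved with genotype in tumor cells. The summed level of 8 leukocyte markers was 41.5 and 52.6 RPKM in KL and 267 and 271 RPKM in KLG4, with 8 of 8 higher in both KLG4 libraries. Ptprc, the gene of CD45 that the sort was meant to exclude, went from 0.834 and 2.06 RPKM to 26.7 and 27.4 RPKM. Summed T cell (6 of 6 markers higher), neutrophil (5 of 5), dendritic cell (5 of 5) and fibroblast (6 of 6) lists were all higher in KLG4, while epithelial (6 of 6) and AT2 (8 of 8) lists were lower. The macrophage markers Ccr2, Cx3cr1, C1qa, C1qb, Csf1r and Ms4a7 summed to 3.03 and 4.86 RPKM in KL and 65.01 and 64.5 RPKM in KLG4. Leukocytes express class I and immunoproteasome genes, so these values stand beside every tumor cell result, and their part in the results was not tested. Libraries labelled MDMs carried neutrophil genes at very high levels, with S100a9 between 9379 and 21106 RPKM and Cxcr2 between 61.3 and 95.9 RPKM. In TRMs, 31.5% and 22.3% of KL reads came from mitochondrial genes or 7 nuclear copies of them, against 2.95% and 5.78% of KLG4 reads.

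**Figure D1:**
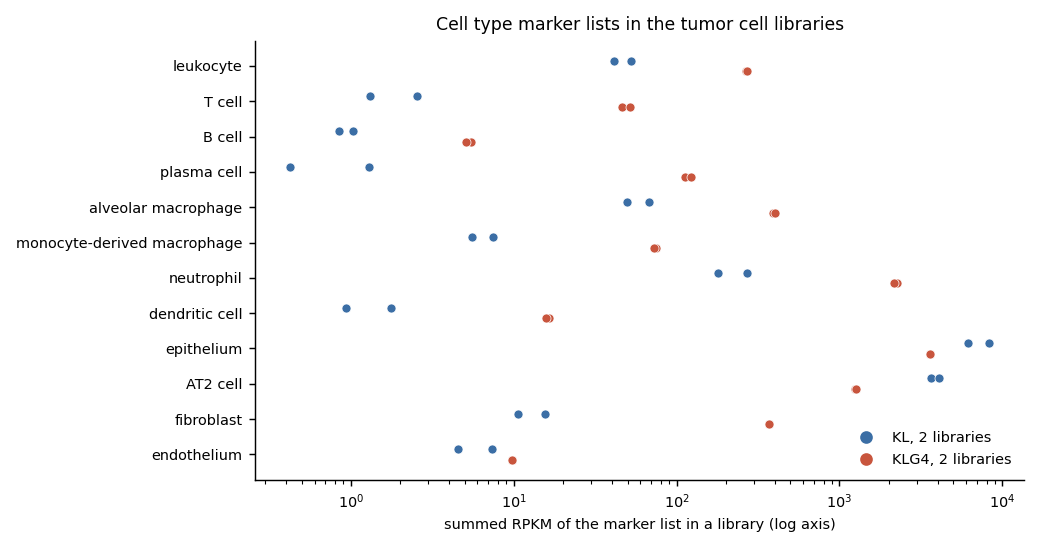
Summed RPKM of each cell type marker list (log axis) in the 4 tumor cell libraries, KL in blue and KLG4 in red, 1 point per library. Leukocyte, lymphocyte, myeloid and fibroblast lists lie further right in KLG4, the leukocyte list at 267 and 271 RPKM against 41.5 and 52.6 RPKM, and the epithelial and AT2 lists lie further left.

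Across the 6 groups H2-K1, H2-D1 and B2m were the most abundant members. Psmb9 and Nlrc5 were the least abundant in tumor cells and TRMs, and Psmb9 in MDMs. The lowest group mean was that of KL tumor cells for 9 of 10 members, and for Tapbp that of KLG4 tumor cells. The highest was that of KL MDMs for 5 members, KLG4 TRMs for 4 and KL TRMs for Psmb8. The 3 tables were normalised separately, so the order across populations is a description without a test. For Nlrc5 the order was KL MDMs (mean 19.998 RPKM), KLG4 MDMs (13.9 RPKM), KLG4 TRMs (5.85 RPKM), KL TRMs (2.63 RPKM), KLG4 tumor cells (2.62 RPKM) and KL tumor cells (0.411 RPKM), and the libraries of both MDM groups overlapped, as did those of KL TRMs and KLG4 tumor cells. Psmb8 ran from KL TRMs (62.7 RPKM) through KL MDMs (50.6 RPKM) and KLG4 TRMs (44.7 RPKM), which overlapped in turn, to KLG4 MDMs (28.6 RPKM), KLG4 tumor cells (13.1 RPKM) and KL tumor cells (7.94 RPKM), which did not. B2m stood at 340.2 to 471 RPKM in the 4 groups labelled TRMs and MDMs, at 143 RPKM in KLG4 tumor cells and at 52.9 RPKM in KL tumor cells.

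**Figure D2:**
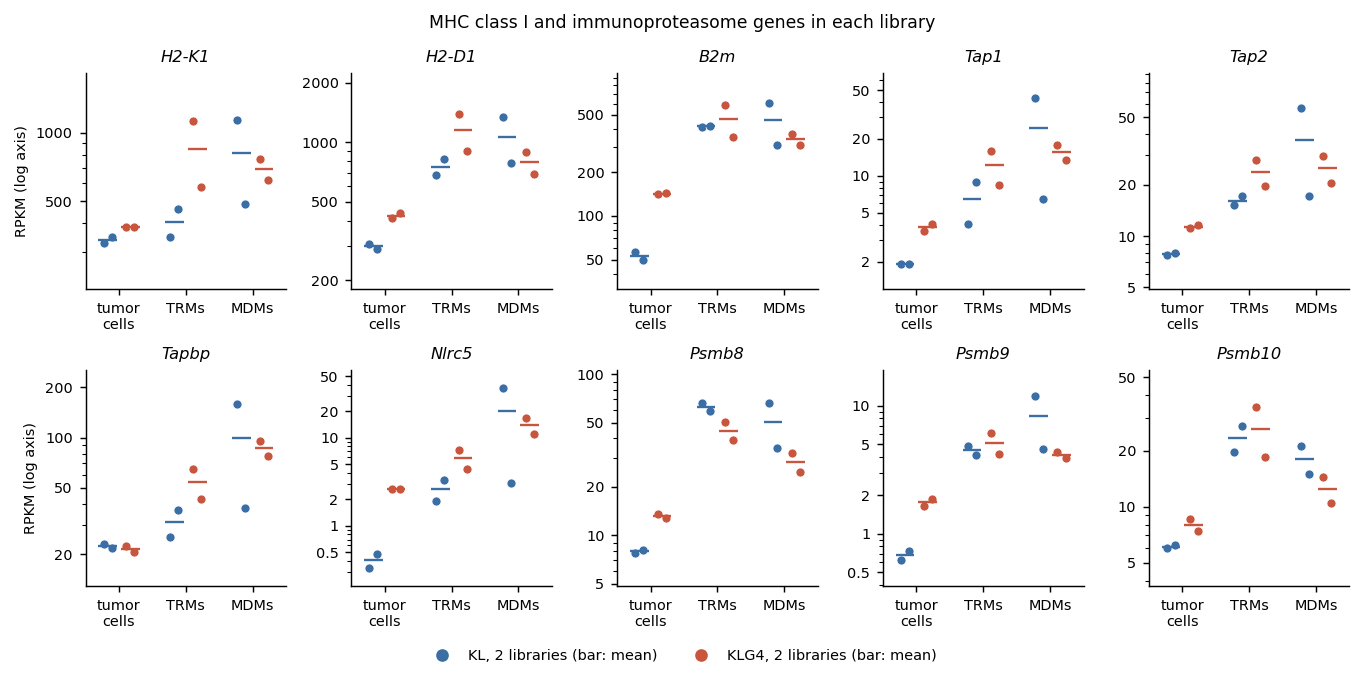
RPKM (log axis) of the 10 genes in every library, by population, KL in blue and KLG4 in red, with a bar at the mean of 2 libraries. In tumor cells both KLG4 libraries lie above both KL libraries for 9 of 10 genes, while in MDMs the upper KL library stands apart from the other, for Nlrc5 at 36.9 RPKM against 3.05 RPKM.

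In tumor cells, RNA of the class I light chain, H2-D1, the peptide transporter, Nlrc5 and 2 of 3 immunoproteasome subunits was higher in KLG4 than in KL. In sorted bulk samples, a change in the cells present and a change in RNA per cell cannot be told apart. By limma on log2(RPKM + 0.1), 7 of 10 members rose and none fell at an adjusted p under 0.05, where 20.6% of the 13770 genes tested rose and 19.6% fell (40.3% in all). The split over all genes moved with scaling, from 2843 higher and 2700 lower to 2585 higher and 4130 lower after quantile scaling and 3017 higher and 2131 lower after TMM scaling, and the same 7 members rose under both. The median log2 fold change of the 10 was 0.62, against -0.09 over all genes. For 9 of 10 members both KLG4 libraries exceeded both KL libraries, a pattern shown by 32.5% of genes, and for 0 of 10 both lay below, as 42.2% of genes did. A 2-fold change together with an unadjusted p under 0.05 was met by 3 members (Nlrc5, B2m and Psmb9) and by 23.8% of genes. Nlrc5 and Psmb9 were under 1 RPKM in both KL libraries and reached the filter only through KLG4, so they could be tested only because they were high there. Without the filter the same 7 members were called. When the close pair of KLG4 libraries was averaged and counted as 1 sample, 2 of 10 passed, Nlrc5 and B2m, and the same 2 passed without either KLG4 library.

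Of the heavy and light chains, B2m changed most. B2m, the light chain without which the heavy chain does not reach the cell surface, stood at 56.1 and 49.6 RPKM in KL and 142 and 144 RPKM in KLG4, a log2 fold change of 1.44 ± 0.12 (SE, adjusted p = 0.000755). H2-D1 was at 306 and 288 RPKM in KL and 413 and 437 RPKM in KLG4, and rose by 0.52 ± 0.11 on the log2 scale (adjusted p = 0.0178). H2-K1, the other classical heavy chain of this strain, was at 327 and 346 RPKM and at 384 and 386 RPKM. Its groups did not overlap, but the log2 difference of 0.19 ± 0.11 did not pass (adjusted p = 0.214, 95% interval -0.08 to 0.47). The light chain was the scarcer RNA, at 0.0887 and 0.0783 of the summed heavy chains in KL and 0.178 and 0.175 in KLG4.

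Among the loading genes, both chains of the transporter rose and tapasin did not. Tap1 was at 1.91 and 1.92 RPKM in KL and 3.55 and 4.08 RPKM in KLG4 (log2 fold change 0.96 ± 0.18, adjusted p = 0.0115). Tap2 was at 7.76 and 8.001 RPKM and at 11.1 and 11.6 RPKM (0.52 ± 0.13, adjusted p = 0.0283). In both genes the KLG4 libraries lay wholly above KL. Tapbp, at 23.1 and 21.7 RPKM in KL and 22.4 and 20.6 RPKM in KLG4, overlapped between genotypes, and its log2 difference of -0.06 ± 0.12 had a 95% interval of -0.37 to 0.25 and turned to 0.0067 under TMM scaling.

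Nlrc5, the transactivator, had the largest log2 difference of the 10 members on this scale. It reached the filter only through KLG4, so it could be tested only because it was high there. It was at 0.334 and 0.487 RPKM in KL and 2.64 and 2.61 RPKM in KLG4, a log2 fold change of 2.43 ± 0.25 (adjusted p = 0.00146, 95% interval 1.80 to 3.06). The size depended on the scale: it was 1.36 with a pseudocount of 1, below the 1.42 of B2m, and 1.69 after quantile scaling. Its lowest library was covered by 104 reads, so the low KL level is a measured one.

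The 3 immunoproteasome subunits lay higher in both KLG4 libraries, and 2 passed the test. Psmb8, the chymotrypsin-like subunit, was at 7.77 and 8.12 RPKM in KL and 13.5 and 12.8 RPKM in KLG4 (log2 fold change 0.72 ± 0.13, adjusted p = 0.01005). Psmb9, which takes the place of the caspase-like subunit, was at 0.627 and 0.732 RPKM and at 1.66 and 1.89 RPKM (1.27 ± 0.23, adjusted p = 0.00918). Its log2 fold change was 0.72 with a pseudocount of 1 and 0.70 after quantile scaling (adjusted p = 0.0480). Psmb9, too, reached the filter only through KLG4. Psmb10, which takes the place of the trypsin-like subunit, was at 5.99 and 6.21 RPKM and at 8.54 and 7.44 RPKM, a log2 difference of 0.38 ± 0.15 that did not pass (adjusted p = 0.0992). Psmb9 and Tap1 overlap by 212 exon bases on opposite strands and the library kit kept no strand, so a small share of reads cannot be assigned between them.

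**Figure D3:**
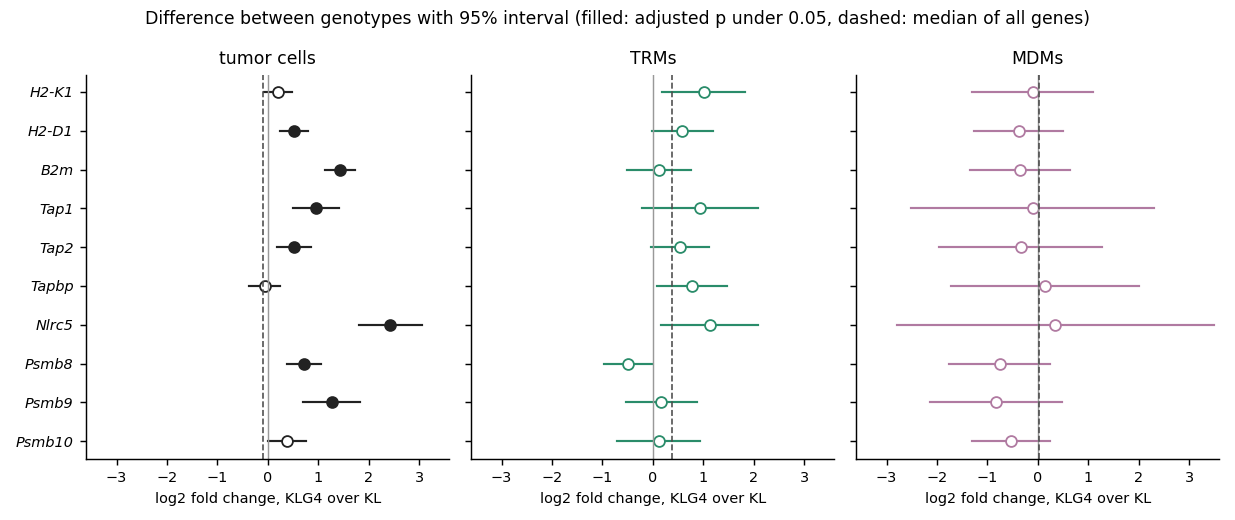
Log2 fold change, KLG4 over KL, with its 95% interval for the 10 genes in tumor cells, TRMs and MDMs, filled where the adjusted p was under 0.05, with the median of all genes as a dashed line. The 7 filled points are all in tumor cells, from 0.52 for H2-D1 and Tap2 to 2.43 for Nlrc5.

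Several constitutive proteasome genes were lower in KLG4 tumor cells, where 19.6% of all genes fell and 20.6% rose. Psmb5, which Psmb8 replaces, stood at 38.8 and 34.9 RPKM in KL tumor cells and fell to 22.8 and 23.1 RPKM with KLG4 (log2 fold change -0.68 ± 0.12, adjusted p = 0.00901). Psmb6 and Psmb7, the counterparts of Psmb9 and Psmb10, had log2 differences of -0.39 ± 0.13 and -0.63 ± 0.20 that did not pass (adjusted p = 0.0685 and 0.0574). For each, both KLG4 libraries lay below both KL libraries, as they did for 42.2% of all genes. Of the other 11 subunits of the 20S core, 6 fell and none rose, with Psma1 (log2 fold change -1.15), Psma4 (-0.65) and Psma2 (-0.64) changing most. Of 17 subunits of the 19S regulator, which unfolds and feeds in proteins, 12 fell and none rose, led by Psmc1 (-0.94), Psmd8 (-0.93) and Psmc4 (-0.93). Of 5 assembly factors 2 fell, Psmg1 (-1.16) and Pomp (-0.84), and of 4 activators 1 fell, Psme3 (-0.57), a share near that of all genes. The medians of the 20S and 19S lists were -0.55 and -0.59, against -0.09 over all genes. All of these calls of a fall were lost when the KLG4 libraries were averaged as 1 sample.

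Within a library, the plain ratio of an immunoproteasome subunit to its counterpart does not depend on how that library was scaled. Psmb8 over Psmb5 was 0.200 and 0.233 in KL and 0.591 and 0.556 in KLG4 tumor cells. Psmb9 over Psmb6 was 0.0208 and 0.0276 in KL and 0.0732 and 0.0918 in KLG4. Psmb10 over Psmb7 was 0.192 and 0.278 in KL and 0.546 and 0.399 in KLG4. All 3 ratios were higher in both KLG4 libraries, by 1.40, 1.65 and 1.01 on the log2 scale with 0.1 RPKM added to each gene. The difference for Psmb9 over Psmb6 was 1.10 with a pseudocount of 1 and 1.76 with 0.01. With 2 libraries against 2, the exact permutation test (two-sided) gave p = 0.333 for each, the smallest it can give. Ratios of tumor cells were still below those of the libraries labelled TRMs and MDMs, where Psmb8 exceeded Psmb5 in all 8 libraries (1.86 to 4.99).

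**Figure D4:**
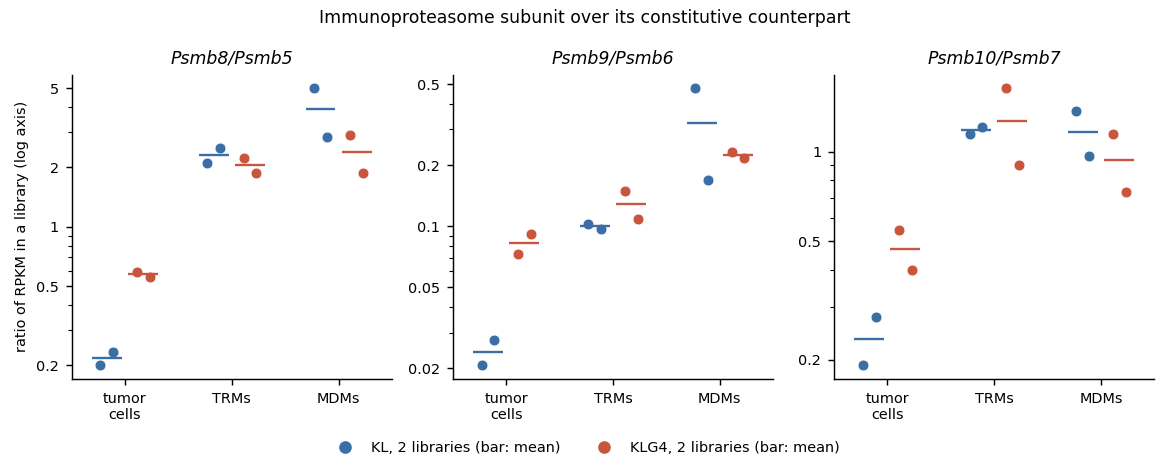
Ratio of RPKM (log axis) of each immunoproteasome subunit to its constitutive counterpart in every library, KL in blue and KLG4 in red, with a bar at the mean. The KLG4 tumor libraries lie above the KL tumor libraries in all 3 panels, for Psmb8 over Psmb5 at 0.556 and 0.591 against 0.200 and 0.233, while the groups labelled TRMs and MDMs lie higher.

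Other class I genes and part of the interferon gamma pathway were higher in KLG4 tumor cells as well. Of 12 further class I and class I-like genes tested, 9 rose and none fell, with a median log2 fold change of 1.303, where 20.6% of all genes rose and 19.6% fell. Of these 9, 4 (H2-M2, H2-Q10, H2-T10 and H2-T24) were under 1 RPKM in both KL libraries and reached the filter only through KLG4. With the KLG4 libraries averaged, 5 of the 9 were called (H2-M2, H2-Q4, H2-Q6, H2-Q7 and H2-Q10). H2-M2 (0.405 and 0.469 RPKM in KL, 8.73 and 9.44 RPKM in KLG4, log2 fold change 4.10 ± 0.19), H2-Q10 (3.46 ± 0.20) and H2-T10 (1.61 ± 0.26) changed most. H2-M2 stood at 203 to 302 RPKM in TRMs, far above either tumor group. Of 9 interferon gamma signalling genes tested, 6 rose and none fell. Of these 6, Ifngr1, Jak2 and Socs1 were called with the KLG4 libraries averaged or without either of them, and Irf1, Jak1 and Socs3 were not. Socs1 reached the filter only through KLG4. Among them the receptor chain Ifngr1 went from 16.7 and 17.3 RPKM to 41.7 and 46.2 RPKM (log2 fold change 1.36 ± 0.12), the kinase Jak2 from 22.9 and 24.04 RPKM to 87.9 and 88.4 RPKM (1.90 ± 0.11), and the factor Irf1, which acts on class I promoters, from 23.5 and 21.5 RPKM to 44.0 and 44.5 RPKM (0.97 ± 0.12). Jak1 (0.88 ± 0.13) and the feedback inhibitors Socs1 (2.08 ± 0.30, from 10 to 39 reads a library) and Socs3 (0.84 ± 0.11) also rose. The adjusted p of these 6 genes lay at 0.00456 or below. The second receptor chain Ifngr2 (0.06 ± 0.13, adjusted p = 0.753) and Irf2 (-0.04 ± 0.17, adjusted p = 0.871, 0.027 under TMM scaling) did not pass. Of 6 other loading genes, 2 fell, the chaperone calnexin (Canx, -0.48 ± 0.11) and the tapasin relative Tapbpl (-0.47 ± 0.14). Of 7 factors of the X and Y boxes tested, 1 fell, Nfyb (-0.50 ± 0.12), and none rose, a share no higher than the 19.6% of all genes. The calls of Canx, Tapbpl and Nfyb were lost with the KLG4 libraries averaged.

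**Figure D5:**
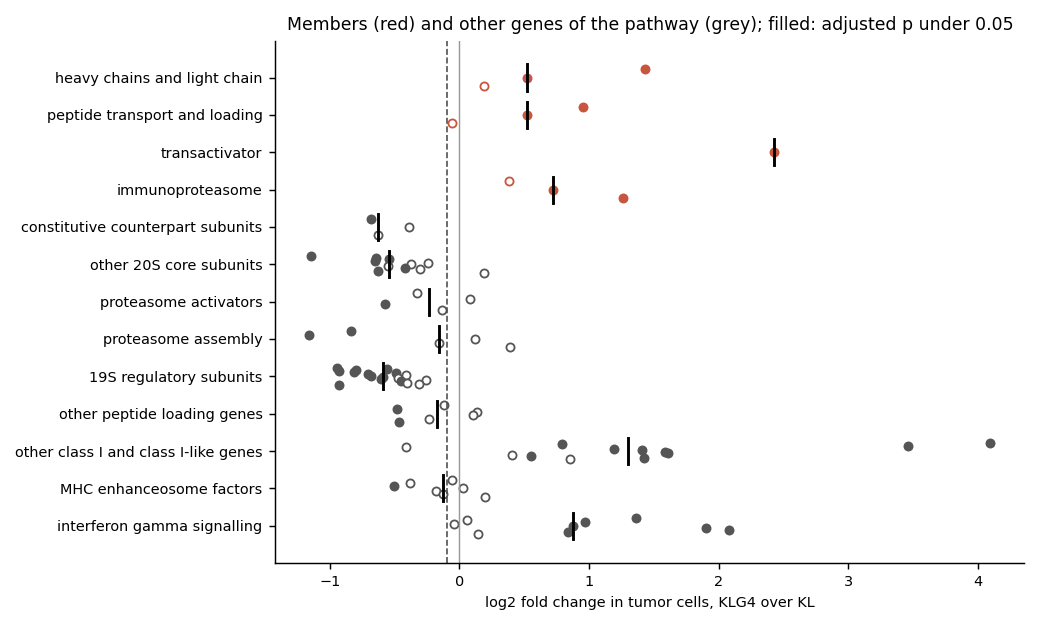
Log2 fold change in tumor cells, KLG4 over KL, of the 10 members (red, by role) and of the other pathway genes (grey, by list), filled where the adjusted p was under 0.05, with a black bar at each list's median and the median of all genes dashed. The other class I list (median 1.303) and the interferon gamma list (median 0.88) lie to the right with the members, and the 20S and 19S lists (medians -0.55 and -0.59) to the left.

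In TRMs no member passed the adjusted threshold, where 1.8% of 10990 genes did. At an unadjusted p under 0.05, 4 of 10 members passed, against 28.3% of genes. Without KL replicate 1 or 2, the median log2 fold change of the members was 0.41 and 0.68, against 0.26 and 0.48 over all genes. Without KLG4 replicate 1 or 2, it was 0.28 and 0.85, against 0.37 and 0.40 over all genes. The table as a whole was shifted: 78.4% of genes had a positive log2 fold change and their median was 0.38, and the median of the members was 0.56. After TMM scaling the median over all genes was 0.00 and that of the members 0.17. The lower mitochondrial share of KLG4 libraries given above moves with this shift, and its part in it was not tested. Markers of other cells also differed between genotypes in TRMs: summed dendritic cell markers were at 3.96 and 6.46 RPKM in KL and 10.98 and 13.2 RPKM in KLG4 (5 of 5 higher), and summed AT2 markers at 171 and 182 RPKM and at 35.9 and 69.4 RPKM (5 of 8 lower, 2 higher). The summed macrophage markers Ccr2, Cx3cr1, C1qa, C1qb, Csf1r and Ms4a7 were at 55.8 and 47.7 RPKM in KL and 87.9 and 124 RPKM in KLG4 TRMs (5 of 6 higher). Summed neutrophil markers were at 224 and 135 RPKM in KL and 111 and 76.1 RPKM in KLG4 TRMs (3 of 5 lower, 0 higher). Summed leukocyte markers were at 752 and 889 RPKM in KL and 1198 and 1159 RPKM in KLG4 (5 of 8 higher, 2 lower). The part of all these markers in the TRM values was not tested.

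H2-K1 was at 349 and 461 RPKM in KL and 1122 and 579.8 RPKM in KLG4 TRMs (log2 difference 1.01 ± 0.33, adjusted p = 0.127), and H2-D1 at 679 and 820.2 RPKM and at 1394 and 900.5 RPKM (0.59 ± 0.25, adjusted p = 0.187). For both heavy chains KLG4 lay above KL, with the first KLG4 library well above the second. After TMM scaling the log2 differences were 0.62 for H2-K1 and 0.20 for H2-D1, and without one library they ran from 0.53 to 1.48 and from 0.27 to 0.90. B2m did not follow them, at 414 and 419.5 RPKM in KL and 589.7 and 353 RPKM in KLG4, with the KLG4 libraries on either side of KL (0.13 ± 0.26). Its ratio to the summed heavy chains was 0.402 and 0.328 in KL and 0.234 and 0.238 in KLG4, a log2 difference of -0.62 (exact permutation p = 0.333, the smallest possible).

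Nlrc5 was at 1.93 and 3.32 RPKM in KL and 7.33 and 4.37 RPKM in KLG4 TRMs (log2 difference 1.13 ± 0.39, adjusted p = 0.139). Tap1 overlapped between genotypes, at 4.04 and 8.97 RPKM and at 16.1 and 8.39 RPKM (0.94 ± 0.47). Leaving out 1 library at a time gave 0.37 to 1.503 for Tap1, 0.75 to 1.504 for Nlrc5, 0.29 to 0.79 for Tap2 and 0.49 to 1.08 for Tapbp. Tap2 (15.1 and 17.1 RPKM, then 27.9 and 19.6 RPKM) and Tapbp (25.5 and 37.0 RPKM, then 65.1 and 43.1 RPKM) were higher in both KLG4 libraries, with log2 differences of 0.54 ± 0.23 and 0.78 ± 0.28 (adjusted p = 0.192 and 0.146). After TMM scaling the log2 differences were 0.75 for Nlrc5, 0.55 for Tap1, 0.15 for Tap2 and 0.39 for Tapbp. In all, 5 of 10 members had both KLG4 libraries above both KL libraries, close to the 53.7% of all genes.

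Psmb8 was the exception, lower in both KLG4 libraries of TRMs, at 66.2 and 59.3 RPKM in KL and 50.5 and 38.9 RPKM in KLG4. Its log2 difference of -0.50 ± 0.19 did not pass (adjusted p = 0.165), and 8.95% of all genes had both KLG4 libraries below both KL libraries. By voom on the reads recovered from the RPKM steps it was the 1 member called, and after TMM scaling its log2 difference was -0.89. Psmb9 (4.89 and 4.16 RPKM, then 6.17 and 4.18 RPKM) and Psmb10 (19.8 and 27.2 RPKM, then 34.3 and 18.5 RPKM) had log2 differences of 0.17 ± 0.28 and 0.12 ± 0.33. Psmb8 over Psmb5 was 2.09 and 2.51 in KL and 2.21 and 1.86 in KLG4, which overlapped. Psmb10 over Psmb7 also overlapped, at 1.15 and 1.21 in KL and 1.63 and 0.903 in KLG4. Psmb9 over Psmb6 was higher in both KLG4 libraries, at 0.149 and 0.109 against 0.102 and 0.0973 in KL. Its log2 difference was 0.35 (exact permutation p = 0.333, the smallest possible). Of the 73 other pathway genes tested in TRMs, 1 was called, Jak2, at 14.5 and 14.7 RPKM in KL and 32.5 and 46.9 RPKM in KLG4 (1.41 ± 0.23, adjusted p = 0.0485). This call was lost under several settings, among them TMM scaling, where the log2 difference was 1.02, and without KL replicate 1 or KLG4 replicate 2. By voom 8 pathway genes were called, of which 6 were lower (Nfyc, Psma2, Psma3, Psma4, Psmc2 and Psme2) and 2 higher (Jak2 and Hspa5). Ifngr1 (0.88 ± 0.17, adjusted p = 0.0594) lay just outside the threshold.

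In MDMs no gene of the 10475 tested passed the adjusted threshold (0% called), and 0 of 10 members had an unadjusted p under 0.05, against 6.74% of genes. By voom on recovered reads 0 genes passed the adjusted threshold, and no member passed either one. Of the 72 other pathway genes tested in MDMs, 0 were called. The members spread widely within KL: the first KL library stood above the second for all 10. Marker lists differed between the same KL libraries, with summed neutrophil markers at 23271 and 10624 RPKM, alveolar macrophage markers at 1265 and 2319 RPKM, epithelial markers at 72.1 and 255 RPKM, AT2 markers at 159 and 381 RPKM and the 6 macrophage markers named above at 60.5 and 252 RPKM, and their part in the spread was not tested. Nlrc5 was at 36.9 and 3.05 RPKM in KL and 16.7 and 11.1 RPKM in KLG4, so the KL libraries lay on either side of KLG4 (log2 difference 0.34, 95% interval -2.80 to 3.48). Tap1 was at 42.8 and 6.48 RPKM in KL and 17.8 and 13.5 RPKM in KLG4, and Tapbp at 160.0 and 38.0 RPKM and at 95.3 and 77.7 RPKM. Tap2, at 56.7 and 17.2 RPKM in KL, held KLG4 at 29.6 and 20.6 RPKM between its libraries. Irf1 was also apart in the KL libraries, at 209 and 49.4 RPKM.

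H2-K1 was at 1142 and 484 RPKM in KL and 767 and 622 RPKM in KLG4 MDMs, H2-D1 at 1342 and 785 RPKM and at 896 and 694 RPKM, and B2m at 607 and 309 RPKM and at 372 and 309 RPKM. In none of these 3 were the groups separate. The immunoproteasome subunits alone were lower in both KLG4 libraries than in both KL libraries, 3 of 10 members against 19.1% of genes, and 0 of 10 were higher in both, against 25.4% of genes. Other proteasome genes were also lower on balance, with a median log2 difference of -0.43 over the 11 other 20S subunits (2 of 11 positive, 0 called) and -0.51 for Psmb6, and the 3 ratios of an immunoproteasome subunit to its counterpart overlapped between genotypes. Psmb8 was at 66.7 and 34.6 RPKM in KL and 32.6 and 24.7 RPKM in KLG4 (log2 difference -0.76 ± 0.38, adjusted p = 0.679), Psmb9 at 12.01 and 4.61 RPKM and at 4.38 and 3.89 RPKM (-0.84 ± 0.50), and Psmb10 at 21.3 and 15.0 RPKM and at 14.5 and 10.4 RPKM (-0.54 ± 0.30). The median over the members was -0.35 and turned to 0.32 without the first KL library, against -0.02 over all genes. Without the second KL library the median was -1.04, against 0.06 over all genes, and all 10 members were lower in KLG4. Each of these fits rests on 1 KL library, assumed to vary as the KLG4 pair does.

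Across the 12 libraries the members moved with each other to differing degrees, as a description over points that share population, genotype and depth. Pearson's r of log2(RPKM + 0.1) ran from 0.54 for Tapbp and Psmb10 to 0.98 for Tap1 and Tap2 over 45 pairs, with a median of 0.87. Of 8977 genes measured in all 3 tables, the 8 closest to the mean of the 10 members were Gm15821 (r = 0.99), Nampt (0.97), Gbp5 (0.96), Gm43802 (0.96), Gbp7 (0.96), Trafd1 (0.96), Gm28177 (0.96) and Gbp2 (0.96). Gbp2, Gbp5 and Gbp7 encode guanylate-binding proteins. Gm15821 shares 533 exon bases with Tap2 on the opposite strand, 14.1% of Tap2's exon bases, so reads from that stretch cannot be assigned between them. Similar limits hold for Tapbp, with 26.1% of its exon bases inside Gm19412 on the opposite strand, and for H2-D1, 4.64% of whose 100-base words recur in transcripts of other class I genes. H2-K1, B2m and Psmb10 had no overlap and no shared 100-base word.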

How the data were processed

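RNA-seq libraries of KL and KLG4 tumor cells, TRMs and MDMs, 2 per group, were grouped by the labels. The other 5 samples of the series (CD8+ T cells and monocytes) were not analysed here. The authors trimmed reads with Trim Galore 0.6.4, aligned them with HISAT2 2.0.5 to the mouse genome (GRCm38, Ensembl) and counted them per gene with featureCounts 2.0.0 without strand, per the submitters' processing notes and the study's methods. The values deposited by the authors were RPKM, with no factor between libraries. The tumor cell table is named as such, while the other tables name no unit and were read as RPKM from the steps of their values. The deposited tables also held fold changes and p-values of the authors' own comparisons, which were not used. The 10 genes and the pathway and marker lists were chosen with earlier results of these data known.

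Each table was fitted alone with limma 3.58.1 in R 4.3.3 (empirical Bayes with an intensity trend) on log2(RPKM + 0.1), for genes at 1 RPKM or more in at least 2 of 4 libraries. P-values were adjusted by Benjamini and Hochberg over all genes tested, with a threshold of 0.05. The pseudocount makes the fold changes given here too small for low genes. With the gene lengths deposited in the tumor cell table, known for 93.9% to 95.7% of genes in the TRM and MDM tables, RPKM steps gave whole reads for at least 99.99% of values within 0.05 reads, and these reads entered limma's voom as an alternative, though most were mates of a pair and not independent. Other pseudocounts, filters and scalings, a fit without the trend, a replicate block, the KLG4 tumor libraries averaged and fits without each library were also run. The size of 1 step gave library totals of 9140750 to 36616986 counted reads. All 10 members could be named, every gene of the constitutive counterpart and interferon gamma lists, the 3 largest changes among genes called in tumor cells of each other list, the 8 genes of most similar pattern, and markers whose values stand beside a result. Genes named beyond these were chosen after their values were seen. Sequences came from RefSeq promoters (GRCm38.p6), of which the 250 bases before the start were searched. Some items are not reported here. The code was tested on simulated data with known changes.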

Additional observations from a re-analysis of the deposited data

Results flagged for a closer look

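A result was singled out when both KLG4 libraries exceeded both of KL in one population and fell short of both in another. The difference between populations was not tested for any of them, since the 3 tables were normalised separately.

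The 3 immunoproteasome subunits met this rule. The share of all genes that meet it was not counted, so whether the subunits stand out by it was not tested. Genotypes without overlap were common within 1 population. KLG4 was the higher group for 32.5% of genes in tumor cells, 53.7% in TRMs and 25.4% in MDMs. It was the lower group for 42.2%, 8.95% and 19.1%. Psmb8 had a log2 difference, KLG4 over KL, of 0.72 in tumor cells, -0.50 in TRMs and -0.76 in MDMs. Psmb9 had 1.27 in tumor cells and -0.84 in MDMs. Psmb10 had 0.38 in tumor cells and -0.54 in MDMs. Without one library at a time, the MDM values ran from -1.23 to -0.29 for Psmb8, -1.52 to -0.16 for Psmb9 and -0.79 to -0.29 for Psmb10, and the TRM value of Psmb8 from -0.69 to -0.31. Of these 7 values, those of Psmb8 and Psmb9 in tumor cells passed the adjusted threshold. In MDMs the 3 ratios of an immunoproteasome subunit to its counterpart overlapped between genotypes. Leukocyte markers were higher in KLG4 tumor libraries, as given above, and the part they play was not tested.

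Ratios within a library, whose log2 differences were taken with a pseudocount of 0.1, also met it. H2-K1 over H2-D1 differed on the log2 scale by -0.32 in tumor cells, 0.42 in TRMs and 0.27 in MDMs. Without one library at a time these ran from -0.41 to -0.24, 0.26 to 0.58 and 0.041 to 0.51. B2m over the summed heavy chains differed by 1.08 in tumor cells, -0.62 in TRMs and -0.092 in MDMs, with ranges of 0.99 to 1.17, -0.77 to -0.47 and -0.13 to -0.058. Each of these differences had an exact permutation p of 0.333, the smallest that 2 libraries against 2 can give.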

How the results depend on the processing

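With 2 libraries per group, each estimate rests on little replication, low genes carry more counting error, and leaving out a library leaves 1 sample in an arm, assumed to vary as the other groups do. The median over the members, 0.62 in tumor cells, was 0.59 with a pseudocount of 1, 0.52 for genes at a mean of 5 RPKM or more, 0.65 after quantile scaling, 0.69 after TMM scaling and on reads outside mitochondrial genes, 0.73 when their nuclear copies were also left out (chosen after seeing the data) and 0.70 by voom. Without a library it was 0.62 to 0.65. In TRMs it moved from 0.56 to 0.17 both after TMM scaling and without mitochondrial genes and copies, and was 0.28 to 0.85 without a library. In MDMs it was -1.04 to 0.32 without a library.

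Of 10 members, 7 were called in tumor cells, 4 where a mean of 5 RPKM was required (7 were then tested), 2 with the KLG4 libraries averaged, and 2 to 8 without a library. In TRMs 1 was called by voom and 0 to 1 without a library, and in MDMs 0 to 3. Of the 74 other pathway genes tested in tumor cells, 40 were called, 8 with the KLG4 libraries averaged and 9 to 52 without a library. In TRMs 1 was called, 2 with a pseudocount of 1, 5 at a mean of 5 RPKM, 8 by voom, 0 with a pseudocount of 0.01, without a filter, without the trend or under each of the 4 rescalings, and 0 to 6 without a library. In MDMs 0 were called and 0 to 20 without a library, the 20 without KL replicate 1. Over all genes, 5543 were called in tumor cells, 1923 with the KLG4 libraries averaged and 1927 to 7372 without a library. In TRMs 198 were called, 490 with a pseudocount of 1, 122 with 0.01, 120 without a filter, 557 at a mean of 5 RPKM, 60 after quantile scaling, 30 after TMM scaling, 66 outside mitochondrial genes, 31 also without copies, 764 by voom, 12 without the trend, 470 with the block and 113 to 2382 without a library. In MDMs the count was 0 throughout except without KL replicate 1 (2682).

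Among single genes and ratios, direction turned under these settings for values that had not passed a test. In tumor cells Tapbp was 0.0067 after TMM scaling, 0.0053 on reads outside mitochondrial genes, 0.052 also without copies and 0.017 by voom. Irf2 was 0.027 after TMM scaling, 0.025 on reads outside mitochondrial genes, 0.072 also without copies and 0.038 by voom, and -0.19 to 0.11 without a library. In TRMs B2m was -0.26 after TMM scaling and also without mitochondrial genes and copies, -0.012 without mitochondrial genes alone, -0.24 by voom and -0.24 to 0.50 without a library. Psmb9 was -0.25 after quantile scaling, -0.22 after TMM scaling, -0.21 without mitochondrial genes and copies, -0.14 by voom and -0.11 to 0.44 without a library. Psmb10 was -0.23 after quantile scaling, -0.27 after TMM scaling and without mitochondrial genes and copies, -0.025 without mitochondrial genes alone, -0.19 by voom and -0.33 to 0.56 without a library. In MDMs H2-K1 was 0.057 after quantile scaling. Without a library MDM values were -0.73 to 0.51 for H2-K1, -0.77 to 0.0067 for H2-D1, -0.84 to 0.13 for B2m, -1.46 to 1.25 for Tap1, -1.20 to 0.52 for Tap2, -0.89 to 1.18 for Tapbp and -1.43 to 2.12 for Nlrc5. Psmb9 over Psmb6 was -1.07 to 0.41 in MDMs, and Psmb10 over Psmb7 -0.38 to 0.47 in TRMs. The cause of these shifts was not tested.

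Groups share replicate numbers, but same-numbered libraries of the genotypes deviated together little, with correlations of 0.02, -0.06 and 0.05 in tumor cells, TRMs and MDMs. Each correlation rests on 1 pair of libraries per genotype, so it cannot show whether a number marks a shared batch. Same-numbered libraries of different populations were not compared. With the replicate number as a block, 6 members (all called before but Tap2, adjusted p = 0.0522) and 36 pathway genes were called in tumor cells, 0 and 1 in TRMs and 0 and 0 in MDMs.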
